A study of Mus musculus with 9 samples.

Results

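Antibody transcripts were followed in the mouse colon through the genes of the immunoglobulin loci. The members are the rows of the deposited gene table whose symbol starts with Ighv, Igkv, Iglv, Ighg or Iglc, or equals Igha, Ighm, Ighd, Igkc or Jchain, and whose raw counts sum to at least 50 over the 9 libraries. Of 33539 genes, 234 have such a symbol and 164 reach that sum. They are 80 of 114 heavy V segments, 70 of 104 kappa V segments, 3 of 3 lambda V segments, 10 of 12 constant regions and Jchain. The summed count is the value that chose them. Just inside it lay Ighv11-2 with 51 counts and Ighv14-1 with 52, and just outside it Ighv1-62-2 with 49 and Ighv2-9 with 46. The 70 rows outside held 913 counts between them, and 3 of these rows were at 0.

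The tissue was colon of wild-type male C57BL/6 mice, with 3 mice to a group, and was collected 84 h after the irradiated groups were exposed. Con mice were not irradiated and received vehicle, named saline in the design text and PBS in the sample labels. IR mice received 13 Gy. IR+CF-2 mice received 13 Gy and CF-2, a compound known here by its code name alone, at 7.5 mg/kg into the peritoneum on 4 occasions, 1 h before and 24, 48 and 72 h after irradiation. No group received CF-2 without irradiation, so the effect of the compound alone cannot be told apart from its effect in irradiated tissue. The sources disagree on age (8 or 6 weeks) and on whether the abdomen or the whole body was irradiated. The title of the series concerns agonism of the cannabinoid receptor CB2 and protection of the intestinal epithelium.

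An antibody is built from paired heavy chains and light chains. Each developing B cell joins a V segment to further short segments and a constant region. Its transcripts and those of its descendants carry that V segment, which unrelated cells can use too. The heavy constant region gives the class of the antibody. Naive B cells carry IgM and IgD (Ighm, Ighd). In the intestinal lamina propria most antibody is made by plasma cells that have switched to IgA (Igha), which is joined into pairs by the J chain (Jchain) and carried across the epithelium by the receptor Pigr. Mouse light chains are mostly kappa (Igkv segments, Igkc) and less often lambda (Iglv segments, Iglc1 to Iglc3).

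The V segments that led the use in a library are shown by the last bases of their coding part, where the V segment is joined to the next segment. Each is given 5′ to 3′ on the coding strand, from the GENCODE M21 transcripts on GRCm38, with the last in-frame cysteine codon (TGT or TGC) in capitals. The conserved cysteine near the junction takes part in the disulfide bond of the V domain, and all 153 V members hold such a codon in their last 60 bases. The heavy V segments below were the most used in at least 1 library each, and lie on the minus strand at chr12:115847881-115847940, chr12:114434788-114434847, chr12:115802648-115802707, chr12:114583569-114583628, chr12:114288152-114288211 and chr12:114523441-114523500 in the order printed.
Ighv1-76: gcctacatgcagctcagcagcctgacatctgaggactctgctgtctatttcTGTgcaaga
Ighv6-6: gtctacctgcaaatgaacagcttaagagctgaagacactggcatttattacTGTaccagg
Ighv1-74: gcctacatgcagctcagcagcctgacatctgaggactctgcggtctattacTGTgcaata
Ighv1-9: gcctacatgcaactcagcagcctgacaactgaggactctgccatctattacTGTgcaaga
Ighv3-6: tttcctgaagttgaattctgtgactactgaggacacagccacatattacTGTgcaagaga
Ighv10-3: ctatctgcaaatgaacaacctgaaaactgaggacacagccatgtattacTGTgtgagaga

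Of the kappa segments that led a library, the pair with the closest sequences is shown with 2 others and with Iglv1, the main lambda segment. They lie at chr6:68271208-68271267 and chr6:68121768-68121827 on the plus strand, and at chr6:68631963-68632022, chr6:69726573-69726632 and chr16:19085017-19085076 on the minus strand.
Igkv1-110: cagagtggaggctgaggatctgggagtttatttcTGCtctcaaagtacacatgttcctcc
Igkv1-117: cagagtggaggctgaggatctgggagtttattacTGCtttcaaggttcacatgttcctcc
Igkv10-96: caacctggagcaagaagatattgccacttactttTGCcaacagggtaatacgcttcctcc
Igkv5-48: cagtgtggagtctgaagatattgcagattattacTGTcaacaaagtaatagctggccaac
Iglv1: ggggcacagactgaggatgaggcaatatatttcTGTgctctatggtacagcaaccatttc

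The segments resemble each other, which limits how finely their counts can be read. Igkv1-110 and Igkv1-117 were 97.5% identical over 401 aligned bases, and 50.9% of the 50-base windows of Igkv1-110 also occurred in another annotated V segment. Over the heavy V members the median identity to the nearest segment was 95.7%, and over the kappa V members 95.1%. More than 50% of the windows were shared in 8 heavy V members, which held 8.23% of heavy V counts, and in 12 kappa V members, which held 16.3% of kappa V counts. Igkv5-48 shared none of its windows. How reads that fit several segments were counted is not stated, so the values of similar segments are uncertain, whereas constant regions and sums over segments depend on it less. The heavy V members lie at chr12:113588267-116000461, the heavy constant regions at chr12:113254830-113422730, the kappa V members at chr6:67609713-70704177 beside Igkc at chr6:70726435-70726966, the lambda genes on chromosome 16 and Jchain at chr5:88519809-88527891. In GENCODE M21 each V or constant region member is annotated as an immunoglobulin V or C gene and none as a pseudogene.

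Libraries keep the numbers of their labels and held 34434015 to 44304016 counts. Levels are CPM (counts divided by the library total and scaled to 1e6), and log2 fold changes are estimates ± standard errors from edgeR's quasi-likelihood test across 19174 genes, called at a Benjamini-Hochberg adjusted p under 0.05. The level of Hoxa13, a homeobox gene of the distal gut, differed between libraries, with 44.0, 0.967 and 7.96 CPM in Con 2, 3 and 4, 2.82, 1.68 and 0.771 CPM in IR 2, 3 and 4, and 59.5, 78.8 and 59.6 CPM in IR+CF-2 1, 2 and 3. All IR+CF-2 libraries therefore lay above all IR and all Con libraries in this marker of position along the colon. Its part in the comparisons of IR+CF-2 with either group was not tested beyond a fit with a Hoxa13 term. Summed smooth muscle markers (Acta2, Myh11, Des, Actg2) ranged from 1905 to 5110 CPM in Con, 1168 to 3134 CPM in IR and 2756 to 4354 CPM in IR+CF-2, and summed epithelial markers (Epcam, Krt20, Car1, Slc26a3, Muc2) from 20721 to 24587, 18664 to 26836 and 10623 to 17363 CPM. The part of these differences in tissue makeup in the results was not tested.

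All members together took 0.251, 0.245 and 0.165% of the counts in Con 2, 3 and 4, 0.0783, 0.0727 and 0.0948% in IR 2, 3 and 4, and 0.205, 0.242 and 0.181% in IR+CF-2 1, 2 and 3. The 3 IR libraries lay below every Con and every IR+CF-2 library, while Con and IR+CF-2 overlapped. In these bulk samples fewer antibody-forming cells and less antibody RNA per cell cannot be told apart.

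Igha, the IgA constant region, was the main heavy constant region in every library, with 91.6 to 98.7% of their summed FPKM (fragments per kilobase of gene length, scaled to the library). Its level was 1029, 1009 and 650.4 CPM in Con 2, 3 and 4, 324, 311 and 397 CPM in IR 2, 3 and 4, and 811, 939.7 and 739.6 CPM in IR+CF-2 1, 2 and 3. Each IR library was lower than each library of the other groups. In IR it fell from 896 ± 213 to 344 ± 46.7 CPM (SD, n = 3), a log2 fold change of -1.38 ± 0.22 with an adjusted p of 0.0296 in edgeR. Jchain followed the same order, with 315, 319 and 194 CPM in Con, 88.9, 85.4 and 115 CPM in IR, and 217, 290.3 and 184 CPM in IR+CF-2. Its log2 fold change in IR against Con was -1.52 ± 0.26 (edgeR adjusted p = 0.0304).

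Igkc, the kappa constant region, stood at 583, 556 and 327 CPM in Con, 191, 175 and 220.5 CPM in IR, and 450.5, 545 and 300.1 CPM in IR+CF-2. Again no IR library reached the lowest library of another group. The log2 fold change in IR against Con was -1.32 ± 0.28 (edgeR adjusted p = 0.0447). Per length, where genes can be set beside each other, Igkc was the most abundant member, with 1096, 1044 and 614 FPKM in Con 2, 3 and 4 beside 386, 378 and 244 FPKM of Igha and 125, 127 and 77.2 FPKM of Jchain.

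**Figure D1:**
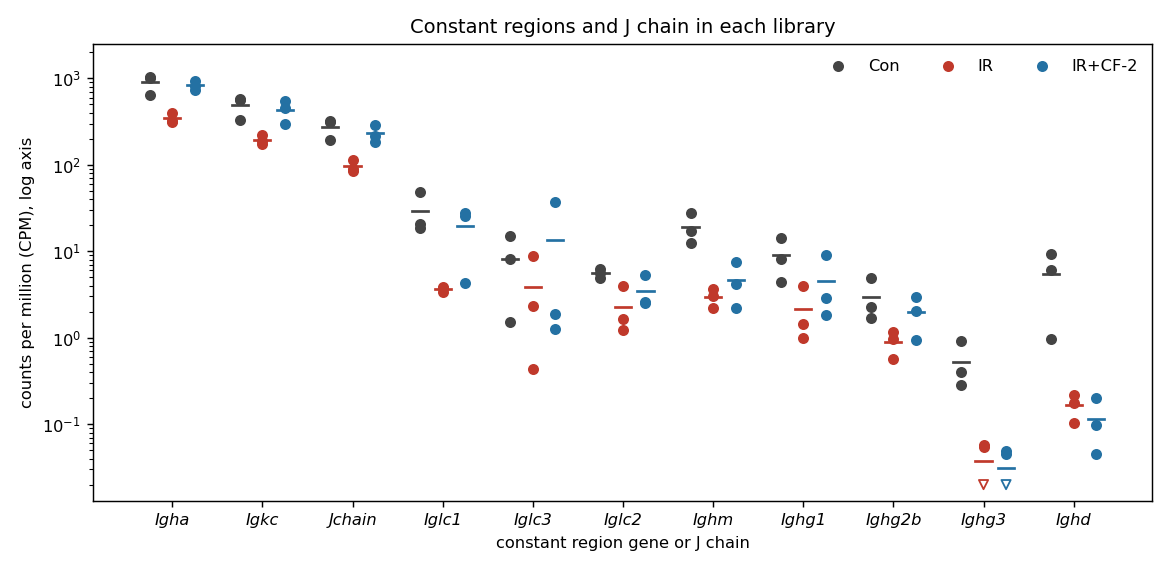
CPM (log axis) of the 10 constant region members and Jchain in each of the 9 libraries, coloured by group, with a bar at the group mean of 3 libraries and an open triangle for a library at 0. Igha, Igkc and Jchain are lowest in the 3 IR libraries and overlap between IR+CF-2 and Con, whereas Ighm and Ighd are low in both irradiated groups.

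Ighm, a constant region of naive B cells, stood at 17.0, 12.6 and 28.0 CPM in Con 2, 3 and 4, 3.63, 2.22 and 3.06 CPM in IR, and 4.15, 7.51 and 2.23 CPM in IR+CF-2. Every irradiated library, with or without CF-2, was below every Con library. The log2 fold change was -2.69 ± 0.46 in IR against Con (edgeR adjusted p = 0.0304) and -2.15 ± 0.45 in IR+CF-2 against Con (edgeR adjusted p = 0.0175). Ighd, which naive B cells express together with Ighm from the same locus, had 246, 41 and 354 counts in Con, 6, 8 and 4 in IR, and 4, 8 and 2 in IR+CF-2. Its log2 fold changes were -5.01 ± 0.84 and -5.62 ± 0.87 against Con (edgeR adjusted p = 0.0304 and 0.00917). Con itself varied widely here, since Con 3 held 41 Ighd counts and Con 4 held 354.

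The IgG constant regions were scarce. Ighg1 stood at 14.3, 8.15 and 4.46 CPM in Con, 1.45, 0.989 and 3.93 CPM in IR, and 2.87, 1.81 and 9.05 CPM in IR+CF-2, without a call in any comparison. Ighg2b ranged from 1.67 to 4.93 CPM in Con, 0.565 to 1.15 CPM in IR and 0.948 to 2.92 CPM in IR+CF-2, also without a call. Ighg3 had 37, 12 and 15 counts in Con, 2, 2 and 0 in IR, and 2, 0 and 2 in IR+CF-2. It was called lower in IR+CF-2 against Con (log2 fold change -3.999 ± 0.87, edgeR adjusted p = 0.0194) and missed the threshold in IR against Con (edgeR adjusted p = 0.0541).

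The lambda genes varied widely within groups. Iglc1 stood at 18.7, 20.5 and 48.1 CPM in Con, 3.72, 3.90 and 3.34 CPM in IR, and 4.25, 25.9 and 28.1 CPM in IR+CF-2, and was called lower in IR against Con (log2 fold change -2.995 ± 0.65, edgeR adjusted p = 0.0471). Iglv1 ranged from 15.3 to 48.7 CPM in Con and from 3.29 to 9.53 CPM in IR, and reached 7.21, 25.9 and 82.7 CPM in IR+CF-2 1, 2 and 3. IR+CF-2 3 was thus above every Con library, and IR+CF-2 1 below all of them. Iglc3 peaked in the same library at 37.5 CPM, against 1.26 and 1.87 CPM in the other IR+CF-2 libraries. Lambda segments took 28.5% of the light chain V counts in IR+CF-2 3 and 22.7% in Con 4, and between 2.64 and 13.8% in the other 7 libraries. Iglv2 and Iglv3 reached at most 3.32 and 0.689 CPM in any library and were not called in any comparison.

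Across the 141 members that passed the filter on low counts (61 heavy V, 66 kappa V, 3 lambda V, 10 constant regions and Jchain), 10 were called lower in IR against Con and 0 higher, where 0.845% of all tested genes were called lower and 2.37% higher (3.21% in either direction). The 0 stands beside 44 members with an unadjusted p under 0.05 in either direction in edgeR, as had 4591 of the 19174 genes. DESeq2 called 1 member higher, Igkv2-112, beside 1436 genes higher. The median log2 fold change was -1.42 over these members and 0.01 over all tested genes, and 118 of the 141 lay below 0. By class the median was -1.90 over the constant regions, -1.42 over heavy V, -1.32 over kappa V and -2.10 over lambda V. The members that passed are those with counts in enough libraries, and the 23 left out (19 heavy V and 4 kappa V) were not tested. In 38 of the 141 (27.0%) all 3 IR libraries were below all 3 Con libraries, against 14.2% of all tested genes, and in 0 all were above, against 22.4%.

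**Figure D2:**
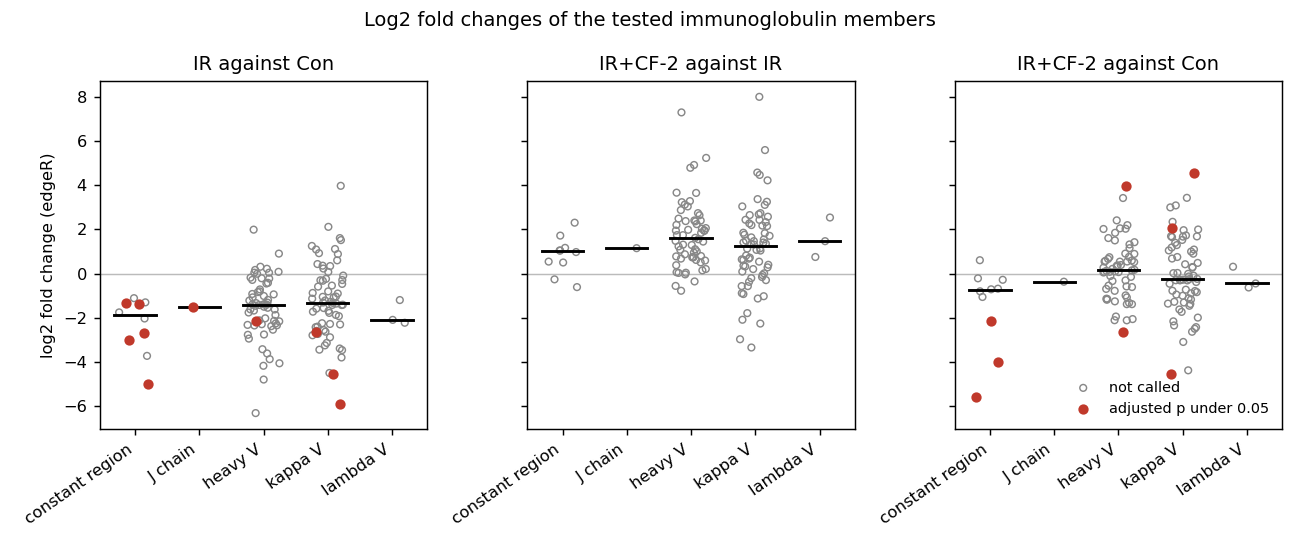
Log2 fold changes from edgeR (vertical axis) of the 141 tested members by class in the 3 comparisons, with filled red points for an adjusted p under 0.05 and a black bar at the class median. The medians lie between -2.10 and -1.32 in IR against Con, between 1.01 and 1.62 in IR+CF-2 against IR and between -0.76 and 0.17 in IR+CF-2 against Con, and the V segments spread by several log2 units around them.

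The 10 called members comprised 5 constant regions (Igha, Ighm, Ighd, Igkc, Iglc1), Jchain, 1 heavy V segment and 3 kappa V segments. The heavy V segment Ighv1-19 fell from 1.601, 2.52 and 1.75 CPM in Con to 0.639, 0.275 and 0.411 CPM in IR (log2 fold change -2.17 ± 0.38, edgeR adjusted p = 0.0312). Igkv2-109 had 349, 166 and 601 counts in Con and 25, 2 and 16 in IR, and Igkv8-28 had 320, 37 and 75 counts in Con and 4, 0 and 2 in IR. Igkv8-30 fell from 217, 93 and 151 counts to 29, 24 and 14. Igkv8-28 is 97.6% identical to its nearest segment, Igkv8-19, so its value is uncertain.

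These calls depended on single libraries. Without Con 2, Con 3, Con 4, IR 2 or IR 3 the count of called members was 0, 1, 0, 0 and 0, and the count over all tested genes moved from 616 to 1, 14, 2, 1 and 1. Without IR 4, in contrast, 9 members and 1191 genes were called. The IR+CF-2 libraries are in neither group of this comparison and enter it only through the shared spread, filter and scaling. Without IR+CF-2 3, 1 member and 86 genes were called, and without IR+CF-2 2, 18 members and 3085 genes were. Leaving out IR+CF-2 1 gave 10 members and 391 genes. The log2 fold change of Igha remained between -1.58 and -1.24 in all alternatives. With the Hoxa13 term 0 members and 45 genes were called.

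In IR+CF-2 against IR 0 of the 141 members passed the test, where 0.302% of all tested genes did. At an unadjusted p under 0.05 edgeR gave 42 members, beside 2792 of the 19174 genes. DESeq2 called 25 members, each higher in IR+CF-2, beside 461 genes higher and 533 lower. By limma-voom 0 members and 62 genes were called. The median log2 fold change was 1.32 over the members and 0.02 over all tested genes, and 119 of the 141 lay above 0. For Igha it was 1.17 ± 0.22 (edgeR adjusted p = 0.0704), for Jchain 1.15 ± 0.26 (0.0966) and for Igkc 1.04 ± 0.28 (0.156), and in each of these 3 genes every IR+CF-2 library was above every IR library. Ighm differed by 0.54 ± 0.44 and Ighd by -0.61 ± 0.94 on the log2 scale (edgeR adjusted p = 0.62 and 0.807). In 33 members (23.4%) all IR+CF-2 libraries were above all IR libraries, against 9.76% of all tested genes, and in 0 all were below, against 7.01%. Without IR+CF-2 2 edgeR called 5 members higher, beside 144 genes higher and 453 lower. Because these groups also did not overlap in Hoxa13, position along the colon and treatment cannot be told apart here.

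The V members with the smallest p in this comparison were Ighv1-19, Ighv3-6 and Igkv3-5, none of them called. Ighv1-19 stood at 2.27, 2.65 and 1.78 CPM in IR+CF-2 (log2 fold change against IR 2.24 ± 0.38, edgeR adjusted p = 0.057). Ighv3-6 stood at 1.97, 3.05 and 4.34 CPM in IR and 27.5, 19.3 and 21.3 CPM in IR+CF-2, above all Con libraries too, which held 14.5, 3.63 and 6.05 CPM. Its log2 fold change against IR was 2.74 ± 0.50 (edgeR adjusted p = 0.069). Igkv3-5 had 0, 0 and 3 counts in IR and 677, 319 and 23 in IR+CF-2, where IR+CF-2 1 held most of them.

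In IR+CF-2 against Con 3 members were called higher and 5 lower of 141, where 11.2% of all tested genes were called higher and 7.95% lower (19.2% in either direction). All IR+CF-2 libraries were above all Con libraries in 9 members and below in 6, against 26.3 and 14.9% of all tested genes. The median log2 fold change was -0.09 over the members and 0.02 over all genes. Those called higher were the kappa segments Igkv13-85 and Igkv3-5 and the heavy segment Ighv1-74. Igkv13-85 had 33, 35 and 32 counts in Con and 174, 167 and 117 in IR+CF-2, with 36, 12 and 59 in IR (log2 fold change 2.06 ± 0.49, edgeR adjusted p = 0.025). Its groups did not overlap, and its nearest segment, Igkv13-84, is 96.3% identical. Ighv1-74 had 36, 51 and 23 counts in Con and 120, 547 and 1312 in IR+CF-2, but its 344, 36 and 17 counts in IR show that single libraries also varied within a group, IR 2 lying above 1 of the IR+CF-2 libraries. Igkv3-5 (16, 16 and 8 counts in Con) is 98.3% identical to Igkv3-10.

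Those called lower were Ighd, Ighm, Ighg3, Igkv8-28 and Ighv2-9-1. Igkv8-28 had 9, 5 and 5 counts in IR+CF-2 and a log2 fold change against Con of -4.58 ± 0.91 (edgeR adjusted p = 0.0156). Ighv2-9-1 had 93, 57 and 27 counts in Con and 2, 20 and 8 in IR+CF-2 (log2 fold change -2.66 ± 0.70, edgeR adjusted p = 0.0327). Igha, Jchain and Igkc had log2 fold changes of -0.22 ± 0.22, -0.37 ± 0.25 and -0.28 ± 0.28 with overlapping groups (edgeR adjusted p = 0.516, 0.333 and 0.506). This does not show that the levels were equal. IR+CF-2 and Con did not overlap in Hoxa13 either, so position along the colon and treatment cannot be told apart here. The comparisons of IR and of IR+CF-2 share the Con libraries, so their values are set side by side and not counted as separate evidence. Without IR+CF-2 1 the count of called members was 1, without Con 4 it was 2, and without Con 2, Con 3 or IR+CF-2 3 it was 5 each, beside 8 with all libraries. Over all tested genes these fits called 923, 685, 1050, 1051 and 1402 in that order, against 3677.

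The ratio of Igha to Ighm counts set the IgA class against the IgM class within each library. It was 60.4, 80.0 and 23.3 in Con, 89.1, 140 and 130 in IR, and 195, 125 and 331 in IR+CF-2. All irradiated libraries were above all Con libraries. The mean log2 ratio was higher than in Con by 1.28 in IR (2.43-fold in the ratio) and by 2.06 in IR+CF-2 (4.16-fold). Each had an exact 2-sided permutation p of 0.1, the smallest that 3 libraries against 3 can give, and 0.15 after adjustment over the 3 comparisons. IR+CF-2 and IR overlapped (1.71-fold, exact permutation p = 0.3). The ratio of Igkc to summed Iglc counts ran from 4.71 to 22.5 in Con, 10.5 to 40.7 in IR and 4.24 to 55.8 in IR+CF-2, with overlap in every comparison (exact permutation p = 0.4, 0.7 and 0.9, each 0.9 after adjustment).

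Summed heavy V levels were 197, 180 and 140 CPM in Con, 63.7, 49.5 and 76.4 CPM in IR, and 226, 233 and 196 CPM in IR+CF-2. Kappa V sums were 298, 303 and 177 CPM in Con, 95.9, 73.6 and 123 CPM in IR, and 316, 345 and 216 CPM in IR+CF-2. For both classes every IR library was below every library of the other groups, as for Igha, Igkc and Iglc1 but not for the other constant regions. Within a class the segments varied far more than the sum did. The biological coefficient of variation, the spread between libraries of a group beyond counting error, had a median of 89.8% over heavy V and 83.9% over kappa V members, against 21.1% for Igha, 23.8% for Jchain, 25.5% over all tested genes and 34.2% over other genes of a similar mean level.

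The leading segment differed from mouse to mouse. Among heavy segments Ighv1-76 led in Con 2 with 17.0% of the heavy V counts (95% Wilson interval 16.2 to 17.9%) and in IR 4 with 11.5%, yet it took 0.314% in Con 3 and had 0 counts in IR 3. Ighv6-6 led in Con 3 with 10.2% and in Con 4 with 15.8%. Ighv1-74 led in IR 2 with 15.7% (14.2 to 17.3%) and in IR+CF-2 3 with 15.1%, Ighv1-9 in IR 3 with 13.98%, Ighv3-6 in IR+CF-2 1 with 12.2% and Ighv10-3 in IR+CF-2 2 with 10.7%. So 6 different heavy segments led in 9 libraries, and no group had 1 leader in all 3 mice. Intervals cover counting error only, since copies made by PCR are not told apart.

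Among kappa segments Igkv10-96 led in Con 2 (9.84%), Con 3 (14.4%) and IR+CF-2 3 (12.9%), and Igkv1-110 in Con 4 (16.8%). In IR the leaders were Igkv6-15 (10.9%), Igkv4-74 (11.9%) and Igkv12-41 (9.05%), and in IR+CF-2 1 and 2 Igkv5-48 (18.2%) and Igkv1-117 (9.98%). Igkv4-74 shows how private a leader can be, since it held 320 of the 2680 kappa V counts of IR 3 and had no counts in IR 4 and IR+CF-2 1. Of 23 heavy segments that reached 5% in any library 10 did so in a single library, and of 20 such kappa segments 11 did. The most widely used were Ighv1-26 and Igkv10-96, each at 5% or more in 7 of 9 libraries, and Ighv3-6, Igkv1-110 and Igkv1-117, each in 6.

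**Figure D3:**
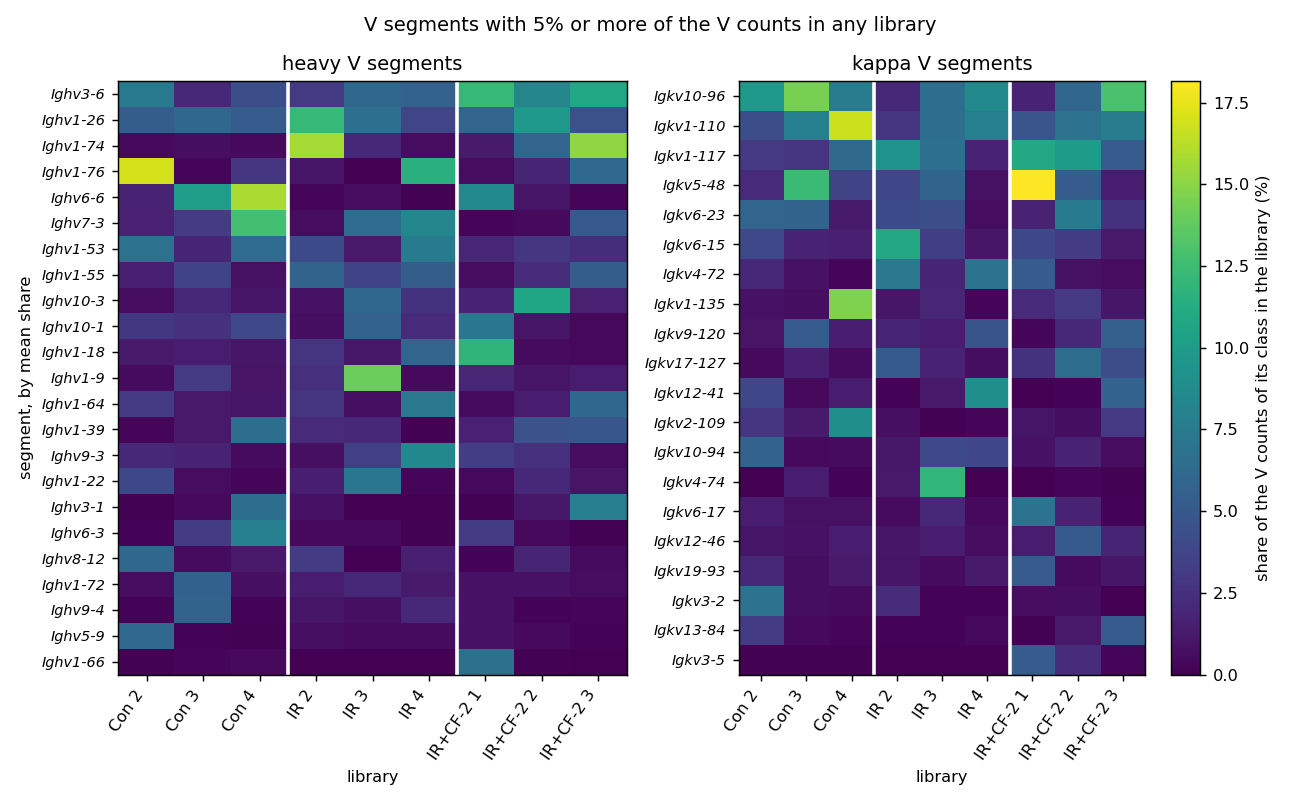
Share (%, colour) of each V segment in the V counts of its class for the 23 heavy (left) and 20 kappa (right) segments that reached 5% in any library, with libraries in columns and white lines between groups. Bright cells are mostly isolated in 1 or a few libraries, such as Ighv1-76 in Con 2 at 17.0% and Igkv5-48 in IR+CF-2 1 at 18.2%.

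Pairs of libraries within a group and pairs from different groups covered similar ranges of shared segment use. The share of heavy V use that a pair of libraries had in common (the sum over segments of the smaller of both shares) had a median of 47.3% over the 9 pairs within groups, ranging from 37.5 to 52.5%, and of 47.0% over the 27 pairs between groups, ranging from 37.8 to 61.8%. For kappa V the medians were 52.4 and 52.2%. These pairs share libraries and are given as a description.

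Evenness of segment use did not separate the groups. The effective number of heavy segments, which is the number of equally used segments that would give the same Shannon entropy, was 28.8, 37.7 and 23.9 in Con, 32.7, 26.1 and 26.3 in IR, and 27.3, 35.2 and 24.0 in IR+CF-2. For kappa segments it was 36.2, 28.4 and 24.3 in Con, 32.9, 30.2 and 32.1 in IR, and 23.9, 33.1 and 28.7 in IR+CF-2. The groups overlapped in both classes. Pielou evenness, which is 1 for equal use, was 0.773 ± 0.052, 0.762 ± 0.029 and 0.764 ± 0.044 for heavy and 0.794 ± 0.047, 0.814 ± 0.011 and 0.787 ± 0.038 for kappa segments in Con, IR and IR+CF-2 (SD, n = 3). The kappa values of the IR mice were close together, from 0.802 to 0.822, while those of Con ran from 0.751 to 0.845. Between 6 and 10 heavy segments and between 5 and 10 kappa segments held 50% of the counts of their class in a library.

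Heavy segments with any count numbered 70, 73 and 68 in Con, 65, 56 and 61 in IR, and 69, 75 and 63 in IR+CF-2, so that IR was below Con in every library. The heavy V counts behind them were 8016, 7633 and 5263 in Con, 2192, 1803 and 2971 in IR, and 9132, 9227 and 8673 in IR+CF-2. When each library was thinned to 1803 counts the expected numbers were 64.1, 68.7 and 63.2 in Con, 64.6, 56.0 and 59.9 in IR, and 62.6, 69.0 and 57.9 in IR+CF-2, and the groups overlapped. At this depth a loss of segments was not detectable apart from the loss of counts.

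Grouped by family, heavy V use was led by the Ighv1 family (41 members), with 60.02, 48.7 and 37.1% of the counts in Con, 71.9, 57.7 and 60.6% in IR, and 49.6, 58.3 and 64.6% in IR+CF-2. Among 13 heavy and 16 kappa families the Igkv4 family (18 members) was higher and the Ighv6 family (2 members) lower in all IR than in all Con libraries, and both are named after their values were seen. All others overlapped between IR and Con, and non-overlap of 1 in 13 heavy and 1 in 16 kappa families was not tested against chance. Igkv4 segments took 13.6, 12.2 and 6.67% of kappa V counts in Con, 21.0, 26.2 and 22.6% in IR, and 9.30, 10.4 and 14.8% in IR+CF-2. The IR libraries were above all others. Single segments weighed in these shares, as Igkv4-74 alone took 11.9% in IR 3 and Igkv4-72 took 7.27% in IR 2. Since shares sum to 100%, a rise of 1 family lowers the shares of the rest.

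V counts per constant region count were compared after the values were seen. For each 100 heavy constant region counts there were 18.5, 17.4 and 20.1 heavy V counts in Con, 19.3, 15.7 and 18.9 in IR, and 27.5, 24.4 and 26.03 in IR+CF-2. For each 100 Igkc counts there were 51.2, 54.5 and 54.1 kappa V counts in Con, 50.3, 42.1 and 55.7 in IR, and 70.1, 63.2 and 72.1 in IR+CF-2. In both chains all IR+CF-2 libraries were above all other libraries, while Con and IR overlapped. Jchain counts per 100 Igha counts ran from 29.9 to 31.6 in Con, 27.5 to 28.9 in IR and 24.9 to 30.9 in IR+CF-2. Whether the coverage along transcripts or the length of the fragments differed between the groups was not tested.

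**Figure D4:**
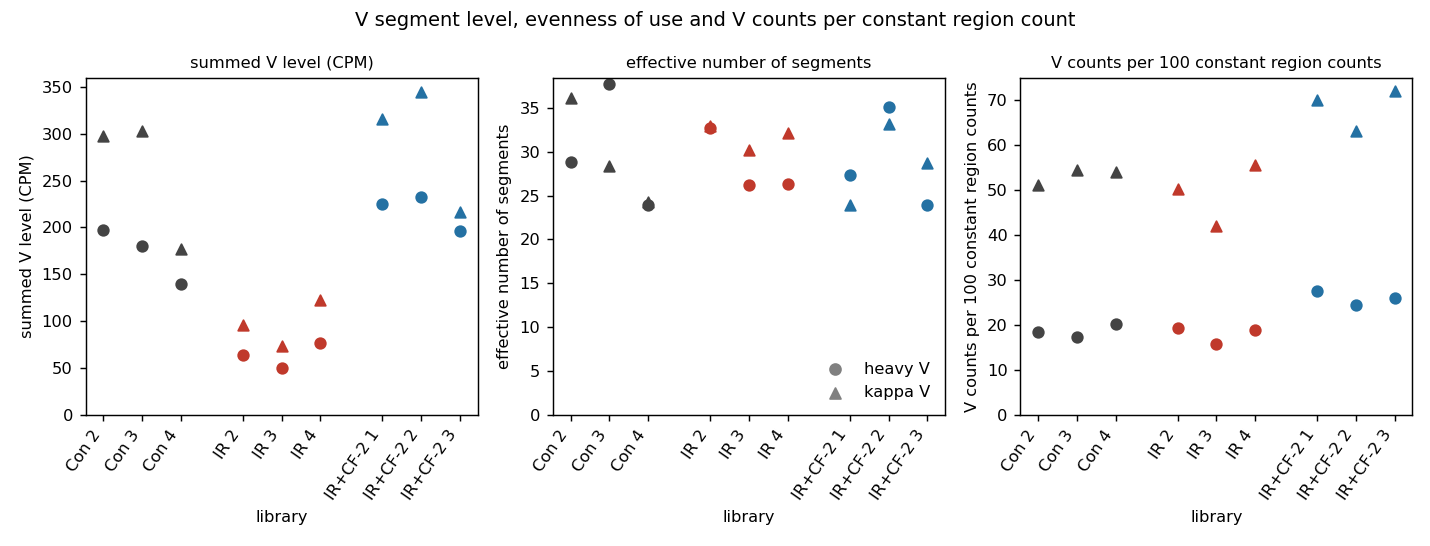
Summed V level (CPM, left), effective number of segments (middle) and V counts per 100 constant region counts (right) for heavy (circles) and kappa (triangles) segments in each of the 9 libraries, coloured black for Con, red for IR and blue for IR+CF-2. The level is lowest in the 3 IR libraries, the effective number overlaps between groups at 23.9 to 37.7, and V counts per constant region count are highest in the 3 IR+CF-2 libraries.

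Other genes of antibody formation were taken from lists. Of 16 tested B cell genes 5 were called lower in IR against Con, 0 in IR+CF-2 against IR and 9 lower in IR+CF-2 against Con, where 0.845% of all tested genes were called lower, 0.302% in either direction and 7.95% lower. The list had median log2 fold changes of -2.09, 0.46 and -2.10. The 0 stands beside 4 genes with an unadjusted p under 0.05 in edgeR. Cd79b, a signalling subunit of the B cell receptor, stood at 4.41, 1.81 and 4.70 CPM in Con, 0.465, 0.495 and 0.308 CPM in IR, and 1.09, 0.857 and 1.17 CPM in IR+CF-2, below Con in every irradiated library. Like Ighm and Ighd, it was low in IR+CF-2 as well. The summed level of the B cell list was 32.1 to 80.7 CPM in Con, 14.5 to 16.1 CPM in IR and 15.2 to 28.2 CPM in IR+CF-2.

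Of 12 plasma cell genes none was called in IR against Con or in IR+CF-2 against IR (3.21 and 0.302% of all tested genes). At an unadjusted p under 0.05 in edgeR lay 7 and 4 of them, beside 4591 and 2792 of the 19174 genes. Eaf2 was called lower in IR+CF-2 against Con (7.95% of all tested genes). The list's median log2 fold changes were -1.16, 0.81 and -0.31, and in IR against Con 8 of the 12 genes lay below 0 and 4 above. Tnfrsf17, the survival receptor BCMA of plasma cells, stood at 1.16, 1.27 and 0.531 CPM in Con, 0.0581, 0.165 and 0.308 CPM in IR, and 0.593, 0.756 and 0.271 CPM in IR+CF-2 (log2 fold change in IR against Con -2.43 ± 0.65, edgeR adjusted p = 0.0707). Its value in IR 2 lay under the floor of 3 counts, which is 0.0871 CPM in that library. Irf4, a factor of plasma cell formation, stood at 4.51, 4.997 and 3.42 CPM, 2.38, 1.32 and 1.57 CPM, and 3.01, 4.91 and 2.75 CPM in the same order. Both were below Con in all IR libraries. The list's summed level overlapped between groups, at 753 to 978 CPM in Con, 818 to 973 CPM in IR and 811 to 933 CPM in IR+CF-2. Sdc1, Xbp1 and Txndc5, which epithelial cells also express, held most of this summed level. Mzb1, a chaperone of plasma cells, reached at most 0.919 CPM in any library.

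Of 12 genes of IgA transport, homing and plasma cell survival 2 were called lower in IR against Con (0.845% of all tested genes), 0 in IR+CF-2 against IR (2 with an unadjusted p under 0.05 in edgeR), and 1, Tgfb1, higher in IR+CF-2 against Con (11.2% of all tested genes). Itgb7, the integrin subunit with which lymphocytes enter the gut, stood at 6.53, 5.77 and 6.24 CPM in Con, 1.57, 1.40 and 2.06 CPM in IR, and 3.80, 4.28 and 1.72 CPM in IR+CF-2. Cxcr4, a receptor that holds plasma cells in their niche, had a log2 fold change of -1.62 ± 0.36 (edgeR adjusted p = 0.0494). Pigr, which carries IgA across the epithelium, stood at 4465, 4620 and 4075 CPM in Con, 1325, 1051 and 2337 CPM in IR, and 758, 2817 and 1010 CPM in IR+CF-2. Both irradiated groups were below Con in every library, without a call (log2 fold change -1.47 ± 0.50 with an edgeR adjusted p of 0.121 in IR, and -1.63 ± 0.50 with 0.0507 in IR+CF-2). Of the 5 genes of V(D)J recombination none reached the filter, and Rag1, Rag2 and Dntt had no more than 0.101 CPM in any library.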

How the data were processed

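RNA was sequenced from 9 mouse colon samples (3 per group) after selection on oligo(dT) beads, per the labels' protocols. The deposited table gives raw counts per gene and, per the file headers, FPKM values made by the authors. The tools HISAT2, featureCounts and DESeq2 and the genome builds mm10 and GRCm38 come from the submitters' processing notes. Their versions, strand setting and treatment of reads that fit several genes are not stated there. Since rearranged and mutated V regions differ from the annotated segments, V counts cover only what could be aligned.

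Counts were tested with edgeR 4.0.16 (R 4.3.3, filterByExpr, TMM, quasi-likelihood with robust = TRUE) in a single fit of all 9 libraries, 2-sided, with Benjamini-Hochberg adjustment over all 19174 genes tested. 3 counts were taken as the floor (0.0677 to 0.0871 CPM). The pipeline was tested on simulated data. FPKM served for levels set beside each other between genes, and CPM elsewhere. Summed levels and evenness have no test. The labels call the samples biological replicates of 3 mice a group. Ratios used exact permutation tests (scipy 1.17.1).

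Members and lists were chosen with earlier results of these data known. Named are all constant regions, Jchain and lambda V members, the 5 heavy and 5 kappa V members of highest mean CPM, the top segment of each library, up to 3 V members of smallest p per comparison and direction, and the 4 genes of smallest p per list. Not all are printed, and other names were chosen after their values were seen. Alternatives were other scalings and filters, DESeq2 1.42.0, limma-voom (limma 3.58.1), the compared groups alone, a replicate block, robust = FALSE, a Hoxa13 term, other evenness measures and leaving out each library. Some results are not reported here.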

Additional observations from a re-analysis of the deposited data

How the results depend on the processing

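Against 10 called members in IR against Con (all lower), DESeq2 called 36 (1 higher, 35 lower) and limma-voom 4. The fit with a Hoxa13 term called 0 and the fit of the compared groups alone 20. Over all genes these settings called 2285, 186, 45 and 2307, against 616 in the main fit. Against 0 in IR+CF-2 against IR, DESeq2 called 25 and edgeR without a filter on low counts 4. Over all genes these 2 settings called 994 and 121, against 58. Against 8 in IR+CF-2 against Con, the filter of 1 CPM in 3 libraries left 3. DESeq2 called 16 (10 higher, 6 lower) and the Hoxa13 term 0. Over all genes these 3 settings called 3725, 5314 and 6, against 3677. The cause was not tested for these differences between tools and terms; the filter of 1 CPM tests fewer members (96). Leaving out each library gave 0 to 18, 0 to 5 and 1 to 10 called members in these comparisons. Over all tested genes the same fits called 1 to 3085, 5 to 597 and 685 to 6721. The difference in the log2 ratio of Igkc to Iglc then spanned -1.36 to 0.50 for IR+CF-2 against IR. For IR+CF-2 against Con it spanned -0.47 to 1.39. It reversed in the first without IR+CF-2 3 and in the second without IR+CF-2 1 (-0.47) or Con 4 (-0.25).

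Same-numbered libraries correlated at 0.0397 to 0.259 in their deviations from the group means, and 3 of 7 such pairs lay under 0.1. Differently numbered libraries correlated at -0.211 to 0.256. These values do not settle whether equal numbers belong together. No label pairs them, so the numbers were not taken as pairs. With the replicate block edgeR called 14, 0 and 3 members in the 3 comparisons. Over all tested genes it called 944, 6 and 462, against 616, 58 and 3677 without the block.

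Evenness was also computed with inverse Simpson, thinned counts, a higher summed count (33 heavy and 42 kappa segments left) and, chosen after seeing the data, with near-identical segments summed (75 and 64 left). The differences between groups moved by less than the spread between libraries in these settings. Depth limits the values of single V segments in IR, whose libraries held 1803 to 2971 heavy V counts over 80 segments.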

Other observations

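Receptors for antibodies were among the other genes followed. Of 7 Fc receptor genes 0 were called in IR against Con or in IR+CF-2 against IR by edgeR (3 and 4 with an unadjusted p under 0.05), and 4 were called higher and 1 lower in IR+CF-2 against Con, where 11.2% of all tested genes were called higher and 7.95% lower. Fcgr4, an activating IgG receptor of myeloid cells, stood at 2.02, 4.27 and 2.23 CPM in Con, 4.47, 4.31 and 3.80 CPM in IR, and 14.996, 8.57 and 7.16 CPM in IR+CF-2. Fcgr3, Fcgr2b and Fcer1g were the others called higher, and Fcgrt, the neonatal Fc receptor, was the gene called lower.

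Of 11 T cell genes 7 were called lower in IR against Con (0.845% of all tested genes), 0 in IR+CF-2 against IR (2 with an unadjusted p under 0.05 in edgeR) and 10 lower in IR+CF-2 against Con (7.95%). Of 9 tested genes of lymphoid follicles Ltb and Ccr6 were called lower in IR against Con (0.845% of all tested genes). In IR+CF-2 against IR 0 were called (0.302% of all tested genes), with 1 at an unadjusted p under 0.05 in edgeR. In IR+CF-2 against Con Ltb, Ccr6 and Ccr7 were called lower, and Cxcl13 and Ccl20 higher. Of all tested genes 7.95% were called lower and 11.2% higher there.

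The IgG2c constant region Ighg2c fell short of the summed count of the members. It had 2, 8 and 4 counts in Con, 2, 4 and 4 in IR, and 0, 2 and 2 in IR+CF-2. Ighe, which the symbol rule does not take in, had 3, 8 and 2 counts in Con, 0 in each IR library, and 2, 1 and 0 in IR+CF-2.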
